A study of Rattus norvegicus with 6 samples.

Results

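Accessible chromatin sites (ACS) near genes of the extracellular matrix and its proteases were compared between islets of newborn and adult rats. The members were all ACS whose nearest listed gene was a collagen, a laminin chain, a matrix metalloproteinase (MMP), a tissue inhibitor of metalloproteinases (TIMP) or an ADAMTS protease, chosen by gene symbol alone. There were 384 such ACS, assigned to 57 genes, out of 101603 ACS and 14776 nearest genes in the whole series. They comprised 170 ACS of 21 collagen genes, 65 ACS of 7 laminin genes, 42 ACS of 16 MMP genes, 17 ACS of 4 TIMP genes and 90 ACS of 9 ADAMTS genes, on 17 chromosomes. Other genes of these families, such as *Col4a2*, *Col6a1*, *Lamb1* and *Mmp14*, were not listed as the nearest gene of any ACS and were not analysed here.

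Accessibility was read out by ATAC-seq, in which the enzyme Tn5 cuts DNA that nucleosomes leave exposed. Each sequenced cut counts as 1 integration. Islet cells came from untreated Sprague–Dawley rats of 2 ages. The Adult group consisted of 3 males of around 90 days, with 1 library per animal (numbered 4, 5 and 6). The P10 group consisted of male and female pups aged 10 days from 3 litters, and each library (1, 2 and 3) held a pool of pups. Islets had been freed by collagenase digestion. Pancreases of 3 to 5 pups were digested together by hand shaking. In adults the enzyme was injected into the pancreatic duct, and digestion lasted longer. Age therefore went together with sex, pooling and digestion in this design, and these cannot be told apart. The islets were dissociated without sorting, so endocrine, vascular and stromal cells were all included. In such bulk samples, fewer cells of a type and less accessibility per cell cannot be told apart. The libraries held 7916919 to 11903909 integrations in ACS at the Adult age and 13491534 to 21168463 at P10. Counts are given below as CPM, the integrations at an ACS per 1000000 integrations in all ACS of a library. Library sizes were adjusted by TMM factors (trimmed mean of log ratios between libraries) of 0.93 to 1.04. A positive log2 fold change means more integrations in adults. An ACS was called when the quasi-likelihood test of edgeR gave a p-value under 0.05 and a Benjamini-Hochberg FDR under 0.2, the limits used by the study.

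Collagens form the fibres and sheets of the extracellular matrix. Collagen IV and the laminins build the basement membrane, the thin sheet that surrounds islet capillaries and on which endocrine cells rest. Laminins are trimers of 1 alpha, 1 beta and 1 gamma chain. MMPs and ADAMTS proteases cut matrix proteins, and TIMPs bind and block MMPs. In islets this matrix is laid down largely by endothelial and mesenchymal cells, and endocrine cells attach to it through integrins.

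Promoter sequences were available from RefSeq (build GRCr8) for 42 of the 57 genes and not for the other 15. The 250 bases before the start of transcription are shown for *Lama1*, *Col4a1*, *Col11a1* and *Adamts2*, whose start-site ACS were called lower in adults, and for *Mmp13*, a collagenase with called ACS upstream of its start. The windows are chr9:115139298-115139547, chr16:84885347-84885596, chr2:204508886-204509135, chr10:35421780-35422029 and chr8:12782579-12782828, all on the plus strand. Capitals mark CCAAT (the NF-Y box) and GGGCGG (the Sp1 GC box) in the first 4 sequences, and TGANTCA (the AP-1 site) and TATAAA (the TATA box) in that of *Mmp13*, each on either strand, and no motif contains another.
Lama1: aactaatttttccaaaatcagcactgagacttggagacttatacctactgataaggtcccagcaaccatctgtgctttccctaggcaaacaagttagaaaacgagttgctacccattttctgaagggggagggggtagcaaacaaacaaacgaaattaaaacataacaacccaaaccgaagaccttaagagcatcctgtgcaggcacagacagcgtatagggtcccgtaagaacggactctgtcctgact
Col4a1: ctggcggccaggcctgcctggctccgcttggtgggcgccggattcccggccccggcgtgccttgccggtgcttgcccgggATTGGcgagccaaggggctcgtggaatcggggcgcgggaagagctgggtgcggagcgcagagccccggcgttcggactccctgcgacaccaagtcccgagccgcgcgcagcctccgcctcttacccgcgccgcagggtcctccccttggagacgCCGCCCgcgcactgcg
Col11a1: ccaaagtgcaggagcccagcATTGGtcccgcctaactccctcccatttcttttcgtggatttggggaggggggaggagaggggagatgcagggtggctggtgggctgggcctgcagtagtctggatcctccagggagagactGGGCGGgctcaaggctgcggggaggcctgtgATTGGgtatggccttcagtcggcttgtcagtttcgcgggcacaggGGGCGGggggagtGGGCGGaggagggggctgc
Adamts2: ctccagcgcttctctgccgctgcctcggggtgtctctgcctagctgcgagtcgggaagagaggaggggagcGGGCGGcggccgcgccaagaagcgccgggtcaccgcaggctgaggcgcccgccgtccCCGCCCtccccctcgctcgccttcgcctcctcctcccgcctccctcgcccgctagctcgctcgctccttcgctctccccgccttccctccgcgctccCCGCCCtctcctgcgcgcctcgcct
Mmp13: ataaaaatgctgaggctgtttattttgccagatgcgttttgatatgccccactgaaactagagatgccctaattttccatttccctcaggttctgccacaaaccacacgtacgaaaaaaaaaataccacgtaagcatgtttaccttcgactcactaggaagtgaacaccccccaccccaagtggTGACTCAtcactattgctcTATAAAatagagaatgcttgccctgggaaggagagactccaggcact

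The window of *Lama1*, with 44.8% GC, held neither CCAAT nor GGGCGG. The windows of *Col4a1* (75.2% GC), *Col11a1* (65.6%) and *Adamts2* (75.6%) held 1, 3 and 3 copies of GGGCGG, and CCAAT was found in those of *Col4a1* and *Col11a1*. *Mmp13* carried 1 TGANTCA and 1 TATAAA in a window of 44.4% GC. Over the 42 genes, GGGCGG was present in 21 windows (50.0%), against 30.5% of all 33469 promoters searched in the same way. TGANTCA was present in 5 windows (11.9%, against 6.34% of all promoters), and all 5 belonged to MMP genes, namely *Mmp1*, *Mmp7*, *Mmp12*, *Mmp13* and *Mmp20*. TATAAA was present in 11 windows (26.2%, against 12.9%) and CCAAT in 11 (26.2%, against 34.0%). These are matches of letters and not measured binding. In GRCr8 *Col4a1* and *Col4a2* are neighbours read from opposite strands, and their 300-base promoter windows share 176 bases.

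Of the 384 ACS, 60 (15.6%) were called higher in adults and 30 (7.81%) lower. Among all ACS the corresponding shares were 12.3% and 6.63%. The median log2 fold change was -0.0054 over the members and -0.0076 over all ACS. All adult libraries lay above all P10 libraries at 59 members, against 13.8% of all ACS, and below them at 52 members, against 10.9%. The members were close to the other ACS in width (median 361.5 against 373 bases) and in mean count per library (59.9 against 64.8) over all classes. In the TSS class they were narrower (517 against 667 bases) and had lower mean counts (96.7 against 235.5), and the part of this in the results for the TSS class was not tested. The numbers of calls depended on single libraries. Without P10 library 2 there were 38 higher and 14 lower calls, without P10 library 3 there were 37 and 17, and without Adult library 4 there were 46 and 19. This loss was shared by the whole series. In the same 3 fits, 7.85%, 8.77% and 9.56% of all ACS were higher, and 3.23%, 4.17% and 5.37% lower. Of the 60 higher calls, 29 were made in all 6 fits that left out 1 library, and of the 30 lower calls, 8. The corresponding shares of kept calls over all ACS were not computed.

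The split of the calls between higher and lower rested on the scaling. The share of higher calls was 66.7% with TMM, 51.1% with the summed integrations as library sizes (47 higher, 45 lower), and 53.3% with cyclic loess scaling (48 higher, 42 lower). With the total sequenced reads as library sizes it was 1.37% (3 higher, 216 lower). In that last case the median log2 fold change of all ACS was -0.84 and that of the members also -0.84, so directions below are relative to the typical ACS. DESeq2 and limma's voom gave 56 and 58 higher calls with 26 and 28 lower calls.

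By family, 26 ACS of collagen genes (15.3%) were higher in adults and 14 (8.24%) lower. Laminin genes had 13 higher (20.0%) and 4 lower (6.15%), and MMP genes 6 (14.3%) and 2 (4.76%). TIMP genes had 2 (11.8%) and 0, and ADAMTS genes 13 (14.4%) and 10 (11.1%). Over all ACS, 12.3% were higher and 6.63% lower. The medians lay within 0.06 of 0 on the log2 scale in every family, with -0.025 for collagens, 0.052 for laminins, -0.0037 for MMPs, -0.053 for TIMPs and -0.0066 for ADAMTS genes. Single ACS ranged from -1.97 near *Adamts3* to 2.36 near *Col11a1*. Members of each family thus moved in both directions around the same centre, apart from the TIMPs, where no ACS was called lower at these limits and limma's voom called 1.

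**Figure D1:**
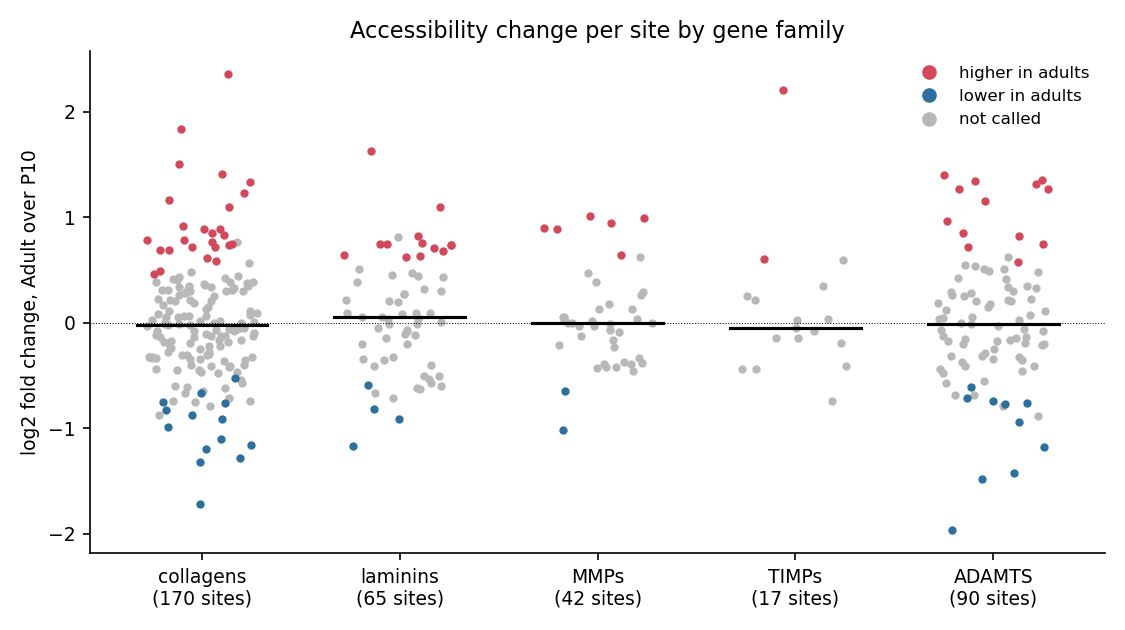
The log2 fold change of accessibility (Adult over P10, y axis) is plotted for each of the 384 ACS by gene family (x axis), with red points called higher in adults, blue points called lower, grey points not called, and a black line at the family median. The 5 medians lie between -0.053 and 0.052, while single ACS range from -1.97 to 2.36.

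The calls were next compared by the position of an ACS relative to its gene. The deposited table sorts ACS into a TSS class around gene starts, a proximal class and a distal class, and the members had median distances of 0.324, 4.12 and 82.2 kb from the start in these classes. Of 49 members of the TSS class, 8 (16.3%) were called lower in adults and 2 (4.08%) higher, against 7.87% and 2.73% of all TSS-class ACS. Their median log2 fold change was -0.28, against -0.10 for all TSS-class ACS, and 85.7% of them were below 0, against 65.6%. Of 39 proximal members, 3 were higher and 4 lower (all proximal ACS: 11.2% and 6.71%). Of 296 distal members, 55 (18.6%) were higher and 18 (6.08%) lower, against 13.8% and 6.45% of all distal ACS, with a median of 0.056 against 0.020. The number of TSS-class members called lower was between 6 and 12 with the other tests and scalings that used integrations in ACS, and 5 without Adult library 4, without P10 library 2 and without P10 library 3.

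Summed per library, the share of all integrations that fell in members was 0.294%, 0.286% and 0.305% in adults and 0.277%, 0.289% and 0.286% at P10. These groups overlapped (exact permutation test, two-sided p = 0.3). In the distal members the shares were 0.215%, 0.205% and 0.225% in adults and 0.188%, 0.192% and 0.192% at P10, with no overlap. In the TSS-class members they were 0.0454%, 0.0482% and 0.0474% in adults and 0.0545%, 0.0609% and 0.0597% at P10, again with no overlap and with the adults lower. Both of these gave p = 0.1 in the exact permutation test, the smallest value that 3 against 3 libraries can reach.

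**Figure D2:**
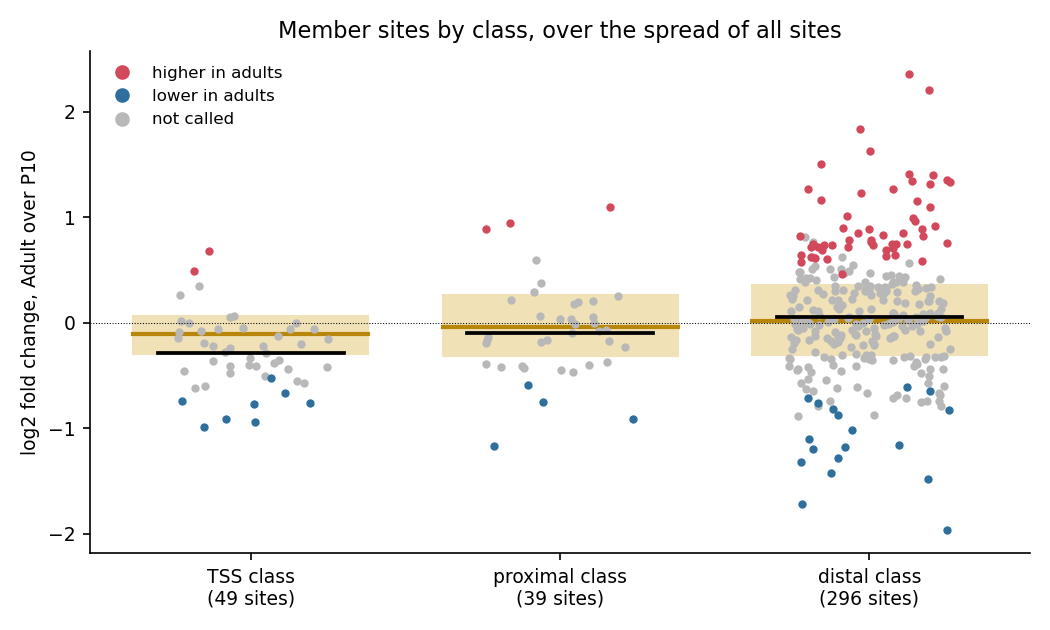
The log2 fold change of accessibility (Adult over P10, y axis) is plotted for members of the TSS, proximal and distal class (x axis), with red, blue and grey points for ACS called higher, lower and not called, and black lines at the member medians. Gold bands and lines give the range from the lower to the upper quartile and the median of all ACS of the class: in the TSS class the members' median of -0.28 lies below the -0.10 of all ACS.

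Start-site ACS of basement membrane genes were among the lower calls. *Lama1* encodes the laminin alpha 1 chain, the form typical of early basement membranes. Its TSS-class ACS (chr9:115407021-115407855, Rn5, 116 bases inside the gene) held 12.7, 14.1 and 12.5 CPM in adults and 17.6, 26.9 and 29.6 CPM at P10. Every adult library was below every P10 library, with a log2 fold change of -0.91 ± 0.21 (standard error implied by the F statistic, n = 3 per age, edgeR FDR = 0.0054), and the call was kept in all 6 fits that left out 1 library. *Col4a1* encodes the alpha 1 chain of the collagen IV network. An ACS over its start (chr16:82987468-82987868) held 1.36, 2.73 and 3.35 CPM in adults and 5.16, 5.42 and 3.96 CPM at P10, a log2 fold change of -0.99 ± 0.34 (edgeR FDR = 0.065). A second one 40 bases further (chr16:82987909-82988425) gave -0.67 ± 0.30 (edgeR FDR = 0.198). Adult libraries were below P10 libraries at both. The first was not called without Adult library 4 (-0.68) or without P10 library 2 (-0.92). The second was called in 1 of 6 such fits, namely without Adult library 5, and was not called by DESeq2 (-0.68) or by limma's voom (-0.67).

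The start-site ACS of the ADAMTS proteases, which trim or cut matrix components, all lay on one side. All 13 TSS-class ACS of the 9 ADAMTS genes were below 0, and 4 of them were called lower and none higher. Among all TSS-class ACS, 65.6% were below 0, 7.87% were called lower and 2.73% higher. In the other families most TSS-class ACS were also below 0, with 17 of 19 for collagens, 4 of 5 for laminins, 3 of 4 for TIMPs and 5 of 8 for MMPs. *Adamts2* encodes an enzyme that removes the N-propeptide of fibrillar procollagens. The ACS over its start (chr10:35868485-35868886) held 4.70, 5.45 and 2.71 CPM in adults and 8.92, 8.84 and 7.24 CPM at P10 (log2 fold change -0.94 ± 0.28, edgeR FDR = 0.031). *Adamts15*, a proteoglycan-cleaving member, held 8.04, 10.0 and 10.2 CPM in adults and 15.5, 16.3 and 15.9 CPM at P10 at chr8:32026583-32027172 (-0.76 ± 0.22, edgeR FDR = 0.025). At the start of *Adamts5*, an aggrecanase, the ACS chr11:29080153-29080785 held 6.14, 7.40 and 8.25 CPM in adults and 12.8, 10.6 and 12.8 CPM at P10 (-0.74 ± 0.23, edgeR FDR = 0.044). At all 3 the adults were below P10 without overlap, and the calls were kept in all 6 fits that left out 1 library. *Adamts3*, the other N-propeptidase in the table, had a call of -0.77 ± 0.34 at chr14:19774070-19774363 (edgeR FDR = 0.177). That call was kept in 2 of 6 such fits, since it was missing without any one of the adult libraries or without P10 library 3 (-0.49 to -0.88), and limma's voom (-0.72) and the cyclic loess scaling (-0.67) did not make it. The TSS-class ACS of *Adamts1*, an early response protease of this family, gave -0.48 ± 0.31 and was not called (edgeR FDR = 0.404), although its adult libraries (2.44, 4.09 and 3.22 CPM) were all below the P10 ones (4.42, 4.99 and 4.18 CPM).

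Among fibrillar collagens, the ACS over the start of *Col11a1*, a minor fibril component (chr2:234954635-234955727), held 24.1, 24.2 and 21.8 CPM in adults and 26.2, 36.6 and 38 CPM at P10. The fold change was -0.52 ± 0.18 on the log2 scale (edgeR FDR = 0.075), and the ACS was not called without P10 library 2 (-0.47) or P10 library 3 (-0.43). A call in the other direction was made at the start of *Col27a1*, also a fibrillar collagen. This ACS (chr5:83170679-83171278) gave 0.49 ± 0.21 (edgeR FDR = 0.151), with overlapping groups of 25.1, 19.4 and 22 CPM in adults and 20.2, 13.8 and 13.2 CPM at P10, and -0.38 with total sequenced reads, where the median of all ACS was -0.84. It was called in 2 of 6 fits that left out 1 library, with values of 0.37 to 0.50 in those that lost it, which left out Adult library 4, Adult library 6, P10 library 2 or P10 library 3.

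The start-site ACS of the type I collagen genes and of the laminin chains *Lama4*, *Lama5* and *Lamc1* were not called. *Col1a1* and *Col1a2*, which together form type I collagen, gave -0.36 ± 0.25 at the TSS-class ACS of *Col1a1* (edgeR FDR = 0.459), and -0.41 ± 0.41 and -0.22 ± 0.35 at those of *Col1a2*. For the laminin chains *Lama4*, *Lama5* and *Lamc1* the values were -0.50 ± 0.25, -0.35 ± 0.25 and -0.20 ± 0.15. The *Lamc1* ACS was among the most open of the members, with 66.1, 59.1 and 64.7 CPM in adults and 74.7, 75.1 and 68.7 CPM at P10, and its adult libraries were all below the P10 ones without passing the test (edgeR FDR = 0.481). *Col3a1*, the type III collagen gene, had no TSS-class ACS, and the ACS nearest its start (chr9:51691750-51692070) was called lower at -0.91 ± 0.32 (edgeR FDR = 0.071), although the groups overlapped (2.35, 4.29 and 5.29 CPM in adults, 4.88, 7.35 and 9.94 CPM at P10). It was not called without Adult library 4 (-0.63) or without P10 library 3 (-0.64). The single ACS of *Lamb2*, the beta chain of mature basement membranes, lay 1.07 kb upstream (chr8:116612009-116612315) and held 0.633, 1.07 and 1.29 CPM in adults and 2.23, 2.50 and 1.90 CPM at P10 (-1.17 ± 0.42, edgeR FDR = 0.081). This low-count call was missing without Adult library 4 (-0.91) or without P10 library 2 (-1.09).

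The start sites of MMPs and TIMPs, with 8 and 4 TSS-class ACS, carried no calls. Among all TSS-class ACS only 10.6% were called, so at so few ACS this does not set the 2 families apart. The 8 TSS-class ACS of MMP genes had a median of -0.0032, and all of their groups overlapped. Of all 11055 TSS-class ACS, the adults lay wholly above P10 at 579 and wholly below at 1723. The gelatinases *Mmp2* and *Mmp9*, which cut denatured collagen and collagen IV, gave 0.060 ± 0.44 at the start of *Mmp2* and 0.054 ± 0.31 at the ACS nearest the start of *Mmp9*, 4.67 kb inside the gene, values that turned to -0.033 and -0.043 with column sums as library sizes and to -0.77 and -0.78 with total sequenced reads. The TSS-class ACS of the inhibitors *Timp1*, *Timp2* and *Timp3* gave -0.053 ± 0.26, -0.19 ± 0.23 and -0.14 ± 0.22. The fourth, that of *Timp4* (chr4:210451550-210452303), gave 0.35 ± 0.21 (edgeR FDR = 0.38), with 13.7, 12.1 and 14.3 CPM in adults, all above the 9.99, 10.7 and 10.8 CPM at P10. *Timp1* lies on the X chromosome, which the male adults carry in 1 copy, while the pools of pups were of both sexes. These values have standard errors of 0.21 to 0.44, so changes of that size, and some larger ones, could not be seen at this depth.

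**Figure D3:**
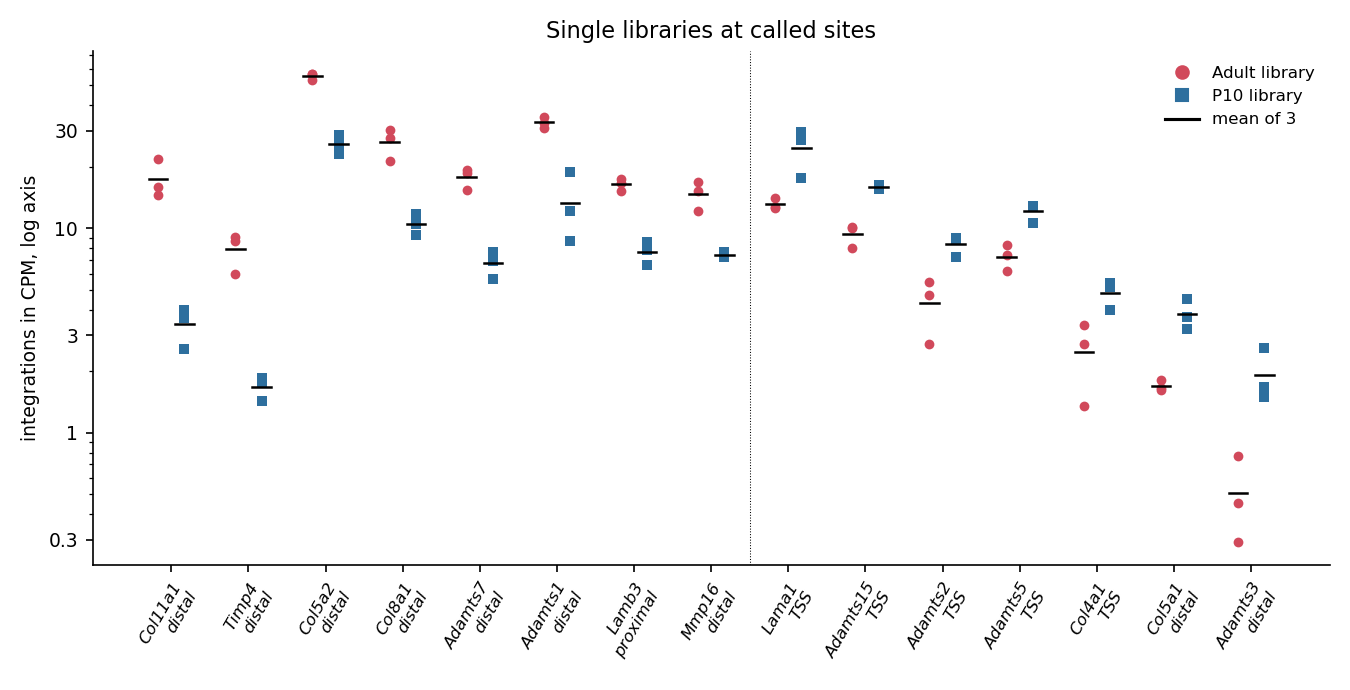
Integrations in CPM (log y axis) in each library are plotted for 15 called ACS (x axis, by nearest gene and class), with red circles for adult libraries, blue squares for P10 libraries and black bars for means of 3. Adult libraries lie above all P10 libraries at the 8 ACS left of the dotted line and below them at the 7 ACS right of it.

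Away from the starts, the 2 largest fold changes were increases. The ACS with the largest fold change of all members lay 247 kb downstream of the start of *Col11a1* (chr2:235202385-235202621), beyond the gene's listed end. It held 15.9, 14.5 and 21.9 CPM in adults and 2.56, 3.99 and 3.65 CPM at P10. The log2 fold change was 2.36 ± 0.26 (edgeR FDR = 8.66e-07), opposite to the ACS over the start of the same gene. *Col5a2*, a collagen V chain that regulates fibril diameter, had an increase at an ACS 107 kb inside the gene (chr9:51798927-51799588). It held 56.7, 53.1 and 56.5 CPM in adults and 23.1, 25.7 and 28.5 CPM at P10 (1.10 ± 0.16, edgeR FDR = 4.76e-05). A second ACS 186 kb upstream of *Col5a2* (chr9:52091844-52092236) rose from 42.7, 44.7 and 44.8 CPM at P10 to 82.7, 61.9 and 72.4 CPM in adults (0.72 ± 0.16, edgeR FDR = 0.0032). Near *Col8a1*, a short-chain collagen of vessel walls, the ACS chr11:47841082-47841971 held 30.2, 21.3 and 27.7 CPM in adults and 9.30, 11.8 and 10.5 CPM at P10 (1.33 ± 0.20). Upstream of *Col14a1*, a fibril-associated (FACIT) collagen, neighbouring ACS separated by 23 bases rose by 1.5 ± 0.26 (chr7:95641675-95642068) and 1.83 ± 0.36. None of these overlapped between ages, and each call was kept in all 6 fits that left out 1 library. The ACS 186 kb upstream of *Col5a2* and the *Col14a1* ACS with 1.83 were included because their calls were kept, so this adds no support for them. Another higher call near each of these 2 genes was kept in 3 of 6 fits.

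By role, the FACIT collagens (*Col9a1*, *Col14a1* and *Col16a1*) had 9 of 36 ACS higher and 1 lower, and 3 of these higher calls were made in all 6 fits that left out 1 library. The fibrillar collagens had 8 of 76 higher and 7 lower, with a median of -0.12, and collagen IV had 4 of 25 higher and 5 lower. Over all ACS, 12.3% were higher and 6.63% lower. The lower distal calls in these groups were at weakly open ACS. *Col5a1*, the partner chain of *Col5a2*, had one 29.1 kb inside the gene (chr3:11818177-11818510) with 1.63, 1.66 and 1.8 CPM in adults and 3.21, 4.49 and 3.70 CPM at P10 (-1.16 ± 0.34, edgeR FDR = 0.031). *Col4a3*, which belongs to specialised collagen IV networks, had one 55.3 kb inside (chr9:88159942-88160251) with 0.813, 1.17 and 1.68 CPM in adults and 3.35, 2.71 and 2.85 CPM at P10 (-1.32 ± 0.39, edgeR FDR = 0.029). In both the adults lay below P10 throughout, and both calls were kept in all 6 fits that left out 1 library. The listed span of *Col1a2* is 1997003 bases, 57.2 times its length in GRCr8, so the ACS listed inside *Col1a2* may not lie in that gene.

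Laminin alpha chains had 8 of 40 ACS higher (20.0%) and 1 lower (2.5%), against 12.3% and 6.63% of all ACS. The lower one was the start of *Lama1*. An ACS 120 kb upstream of *Lama1* (chr9:115287021-115287246) moved against the start, with 5.15, 5.06 and 10.4 CPM in adults and 2.37, 3.00 and 1.27 CPM at P10 (1.63 ± 0.35, edgeR FDR = 0.0025). *Lama4*, the main alpha chain of endothelial basement membranes, had 20 ACS, of which 3 were higher and none lower. The one with the smallest p-value (chr20:45510581-45511056, 276 kb upstream) held 15.2, 13.1 and 11.7 CPM in adults and 7.90, 7.56 and 8.30 CPM at P10 (0.75 ± 0.22, edgeR FDR = 0.032), and gave -0.076 with total sequenced reads, where the median of all ACS was -0.84. *Lamb3*, the beta 3 chain of laminin-332, had an ACS 4.18 kb upstream (chr13:116582944-116583408) with 17.4, 16.7 and 15.2 CPM in adults and 8.60, 7.85 and 6.61 CPM at P10 (1.09 ± 0.22, edgeR FDR = 0.0014). At these 3 ACS adults were above P10 without overlap, and the calls were kept in all 6 fits that left out 1 library. In *Lamc1*, the widely expressed gamma 1 chain, a lower call lay 71.0 kb inside the gene (chr13:75678128-75678374, -0.81 ± 0.33, edgeR FDR = 0.141). It was kept in 2 of 6 such fits and was missing without Adult library 4 (-0.68), Adult library 6 (-0.82), P10 library 2 (-0.60) or P10 library 3 (-0.89).

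Among the MMPs, 5 of the 6 higher calls belonged to *Mmp13* and *Mmp16*. *Mmp13* is a collagenase that cuts fibrillar collagens, and the promoter shown above belongs to it. An ACS 9.80 kb upstream of its start (chr8:5518183-5518732) held 15.7, 12.8 and 12.2 CPM in adults and 6.18, 6.78 and 9.04 CPM at P10 (0.89 ± 0.23, edgeR FDR = 0.014). A second one 1.42 kb upstream (chr8:5526557-5526770) gave 0.95 ± 0.33 (edgeR FDR = 0.070), and was not called without P10 library 2 (0.89) or P10 library 3 (0.88). *Mmp16*, a membrane-anchored MMP, had 12 ACS with 3 higher and 1 lower. Those 97.0 and 200 kb inside the gene (chr5:36336448-36337118 and chr5:36439467-36440181) rose by 1.0 ± 0.23 and 0.90 ± 0.24, from 7.20, 7.63 and 7.35 CPM to 15.3, 12.2 and 16.9 CPM at the first. A weak ACS 108 kb inside (chr5:36347546-36347819) fell by 1.02 ± 0.42 on the log2 scale (edgeR FDR = 0.140), and was not called without Adult library 4 (-0.72), P10 library 2 (-0.87) or P10 library 3 (-1.07). *Mmp20*, the tooth enamel protease, had a lower call inside the gene at -0.65 ± 0.29 (edgeR FDR = 0.179). It was kept in 3 of 6 such fits, being missing without Adult library 4 (-0.61), Adult library 6 (-0.59) or P10 library 2 (-0.42), and limma's voom (-0.59) did not make it.

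Among the inhibitors, *Timp4* was the only gene with calls. An ACS 25.6 kb downstream of its start (chr4:210426657-210426876) held 8.68, 5.94 and 9.02 CPM in adults and 1.77, 1.43 and 1.85 CPM at P10. This was the second largest fold change of all members (2.21 ± 0.30, edgeR FDR = 1.98e-05), and the call was kept in all 6 fits that left out 1 library. The other called ACS of *Timp4*, 21.5 kb upstream, gave 0.60 ± 0.27 (edgeR FDR = 0.187). Its call was lost in all 6 such fits (0.45 to 0.69) and with column sums (0.51) or cyclic loess scaling (0.49), and the value was -0.20 with total sequenced reads, where the median of all ACS was -0.84.

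Distal ACS of ADAMTS genes had 13 higher and 6 lower calls among 74 (17.6% and 8.11%), against 13.8% and 6.45% of all distal ACS. *Adamts1* had 3 higher ACS 43.7 to 81.8 kb downstream of its start. The first (chr11:28931161-28931598) held 35.2, 31.0 and 32.7 CPM in adults and 8.65, 12.1 and 18.9 CPM at P10 (1.32 ± 0.22, edgeR FDR = 0.00022). The other 2 were 1118 bases apart (chr11:28893076-28893493 and chr11:28894612-28894958) and both rose by 1.27. *Adamts7*, a protease of vessel walls and cartilage, had an ACS 20.7 kb inside (chr8:97056055-97056620) with 18.7, 19.3 and 15.3 CPM in adults and 5.67, 7.63 and 6.93 CPM at P10 (1.41 ± 0.22, edgeR FDR = 0.00012). *Adamts12* had 3 higher ACS 30.9 to 104 kb inside the gene, of which chr2:83619320-83619708 held 21.3, 18.9 and 18.7 CPM in adults and 4.83, 8.70 and 9.57 CPM at P10 (1.36 ± 0.24, edgeR FDR = 0.00037). All of these were free of overlap, and the calls were kept in all 6 fits that left out 1 library. The ACS chr11:28894612-28894958 and the other *Adamts12* ACS were included because their calls were kept, so this adds no support for them. *Adamts1* and *Adamts12* also had 1 lower call each, kept in 4 of 6 fits. The N-propeptidases *Adamts2* and *Adamts3* had 4 lower and 1 higher calls among 12 distal ACS, besides 2 lower calls among 3 TSS-class ACS. Of these 6 lower calls, 3 were made in all 6 fits that left out 1 library, and neither gene was called by summed integrations (-0.25 ± 0.16 and 0.0094 ± 0.13). The lowest value of all members was at an ACS 33.4 kb upstream of *Adamts3* (chr14:19739728-19740035), where 5, 3 and 6 integrations were counted in adults and 36, 21 and 49 at P10 (-1.97 ± 0.49, edgeR FDR = 0.0096). This call was also kept in all 6 such fits.

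Called ACS of one gene often pointed in different directions. Of the 57 genes, 34 had at least 1 called ACS and 23 had at least 2. In 14 of these 23 the called ACS went both ways, in 7 they were all higher and in 2 all lower. Among all genes with at least 2 called ACS, 54.9% had calls in both directions, so mixed genes were common in the whole series. *Col4a1* was an example. Of its 16 ACS, 3 were higher and 4 lower. Both start-site ACS were lower, while an ACS 55.8 kb upstream (chr16:82932019-82932485) held 18.9, 18.4 and 13.9 CPM in adults and 10.9, 7.77 and 8.93 CPM at P10 (0.89 ± 0.22, edgeR FDR = 0.0093), and one 135 kb downstream of the start gave 0.73 ± 0.21 (edgeR FDR = 0.026). Since *Col4a2* was not listed, ACS listed upstream of *Col4a1* may lie in that neighbouring gene. In *Lama1*, 5 distal ACS were higher and the start was lower. In *Col9a1*, with 18 ACS, 6 were higher and 1 lower, and the clearest (chr9:29332600-29333107, 89.4 kb downstream of the start) held 12.8, 12.3 and 12.9 CPM in adults and 5.44, 5.92 and 4.81 CPM at P10 (1.23 ± 0.23, edgeR FDR = 0.00084). Calls in both directions were also found for *Adamts1*, *Adamts3*, *Adamts5*, *Adamts12*, *Col1a2*, *Col3a1*, *Col8a1*, *Col11a1*, *Lamc1* and *Mmp16*. Called ACS that lay within 5000 bases of each other formed 8 pairs, and 6 of these pairs had the same direction. These 6 were 23 to 2076 bases apart, and those near *Col14a1*, *Col4a1* and *Lama1* at most 93. The pairs of opposite direction were 3375 and 4758 bases apart. The share over all neighbouring called ACS of the series was not computed, so 6 of 8 has no background here.

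**Figure D4:**
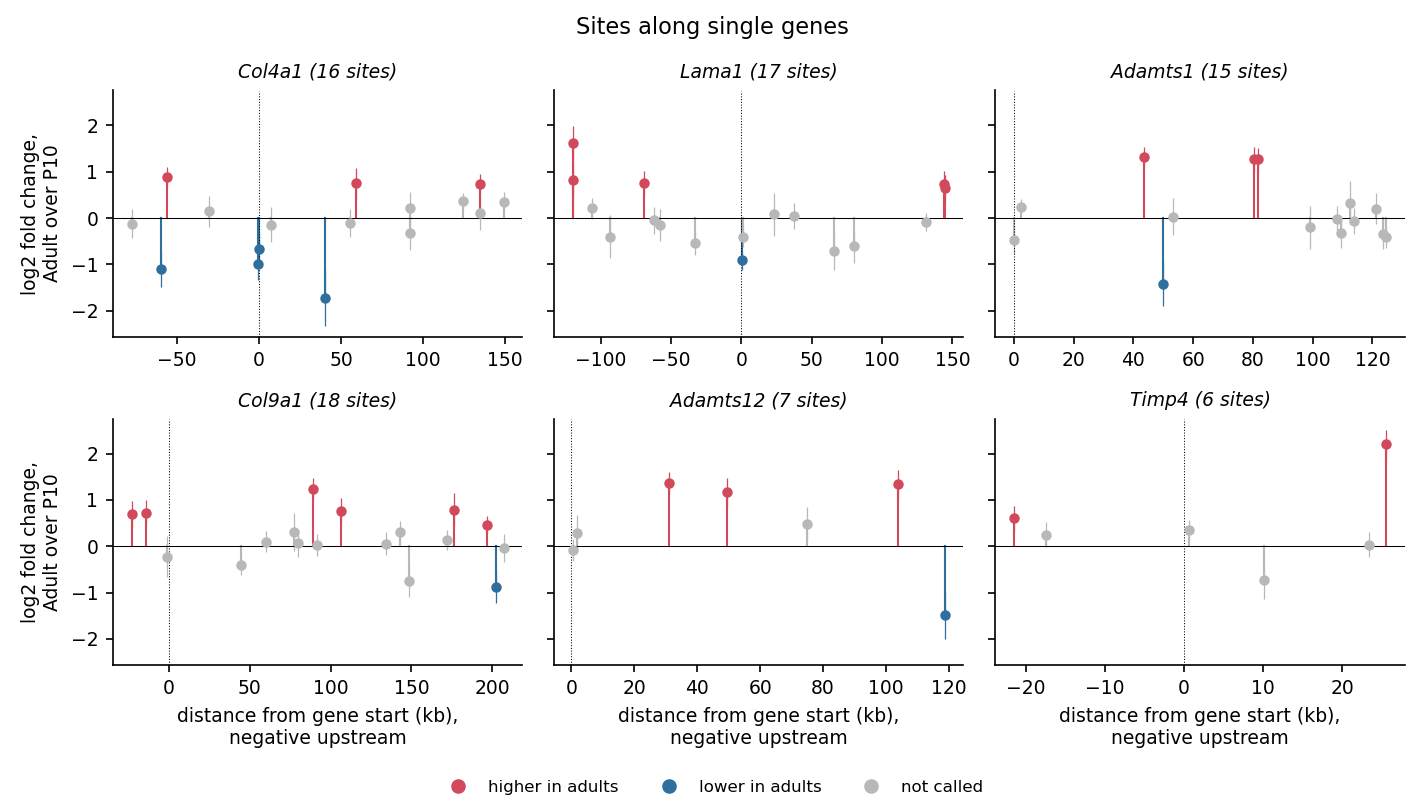
The log2 fold change of each ACS (Adult over P10, y axis) is plotted against its distance from the start of the nearest gene in kb (x axis, negative upstream) for 6 genes, with error bars of 1 standard error and red, blue and grey for ACS called higher, lower and not called. At *Col4a1* and *Lama1* the lower calls include the gene start while ACS further away are higher, and at *Adamts12* 3 ACS inside the gene are higher.

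To obtain 1 value per gene, integrations were summed over all ACS of each nearest gene and tested in the same way over all 14776 genes. Of the 57 genes, 8 were higher in adults and 3 lower, while 10.5% and 7.63% of all genes were called higher and lower. *Adamts12* had the largest increase among those called, with 47.3, 49.7 and 48.1 CPM in adults and 21.4, 29.1 and 35.3 CPM at P10 (0.76 ± 0.16, edgeR FDR = 0.0093). *Mmp13* (0.61 ± 0.16), *Lamb3* (0.58 ± 0.13) and *Col5a2* (0.52 ± 0.12) followed with FDR values of 0.033, 0.014 and 0.015 in edgeR. These 4 genes were called in all 6 fits that left out 1 library. *Adamts1* (0.44 ± 0.13), *Timp4* (0.43 ± 0.14), *Col15a1* (0.40 ± 0.15), a collagen of vascular basement membrane zones, and *Col4a1* (0.30 ± 0.12) were also higher, with edgeR FDR values from 0.054 to 0.168. The lower genes were *Col5a1* (-0.44 ± 0.15, edgeR FDR = 0.097), *Mmp20* (-0.55 ± 0.21, edgeR FDR = 0.142) and *Lamb2* (-1.17 ± 0.41, edgeR FDR = 0.106, a sum over 1 ACS). In all 11 called genes the libraries of the 2 ages did not overlap. The calls were made from these same libraries, so this adds no support for them.

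Most of the weaker gene calls rested on single libraries. *Adamts1* was not called without P10 library 2 (0.46), and *Timp4* was not called without Adult library 6 (0.36) or P10 library 2 (0.47). *Col5a1* and *Lamb2* were not called without Adult library 4 (-0.36 and -0.87) or P10 library 2 (-0.46 and -1.08). *Col15a1* and *Mmp20* were kept in 2 of 6 such fits, the former being lost without Adult library 4 (0.37), Adult library 6 (0.40), P10 library 2 (0.43) or P10 library 3 (0.34), and the latter without any one adult library (-0.50 to -0.62) or P10 library 2 (-0.33). *Col4a1* was kept in 1, without P10 library 1, and lost in the other 5 (0.21 to 0.31). When distal ACS alone were summed, *Lamb3* (0.33), *Col15a1* (0.31) and *Col4a1* (0.28) were not called, and *Mmp13* gave -0.056, so that its increase came from ACS within the proximal and TSS classes. The genes with the most ACS were not called as sums, namely *Adamts5* with 25 ACS (0.028 ± 0.12), *Lama4* with 20 (0.17 ± 0.12), *Col9a1* and *Col1a2* with 18 each (0.27 ± 0.12 and 0.21 ± 0.12) and *Lama1* with 17 (0.016 ± 0.14).

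**Figure D5:**
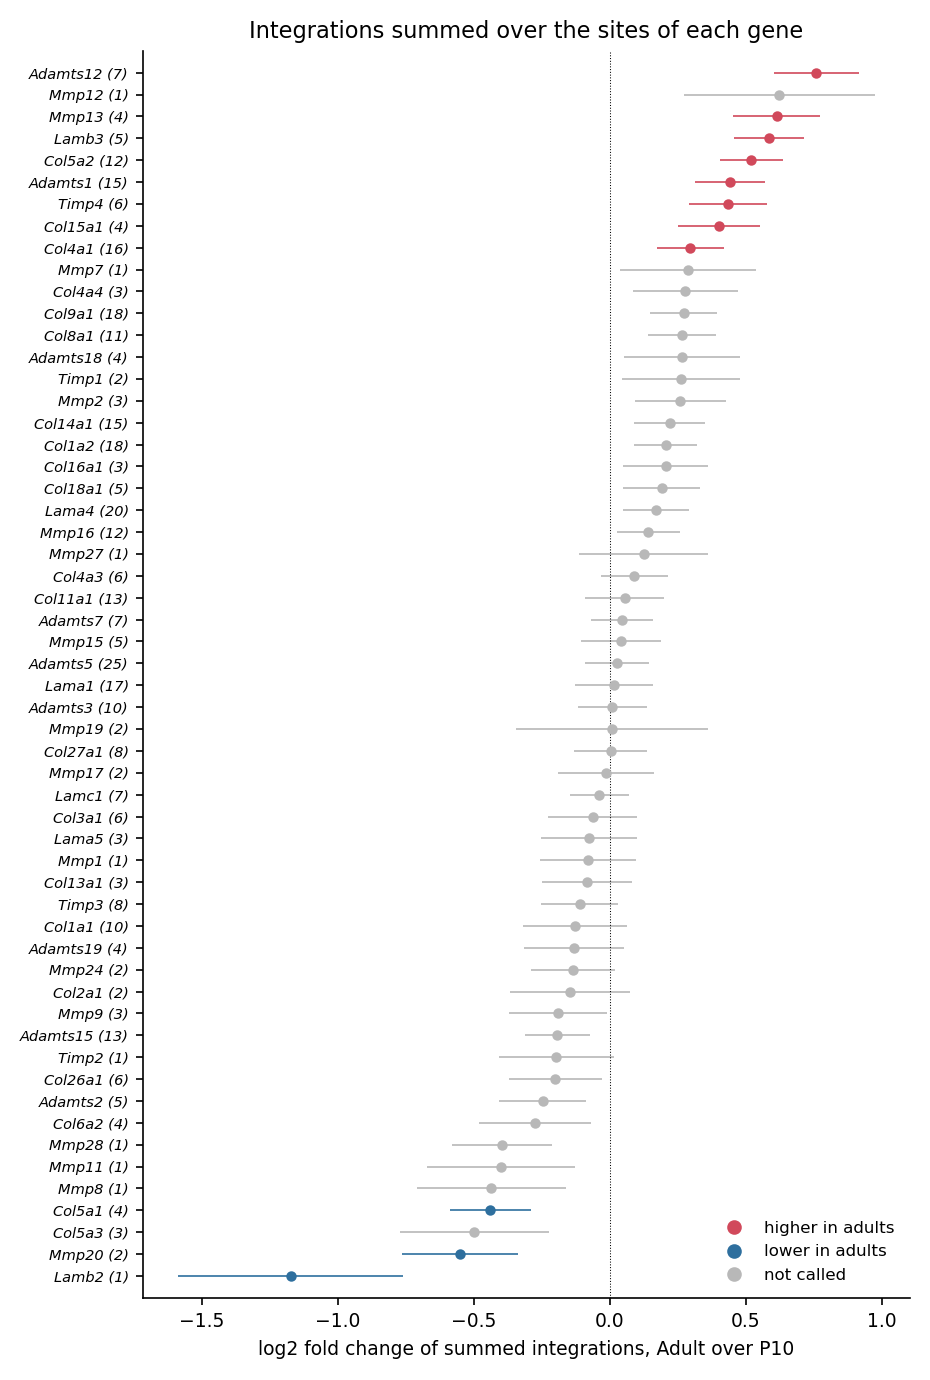
The log2 fold change of integrations summed over the ACS of each gene (Adult over P10, x axis) is plotted for 56 genes (y axis, number of ACS in brackets), with error bars of 1 standard error and red, blue and grey for genes called higher, lower and not called. The 8 called higher lie between 0.30 and 0.76 and the 3 called lower between -1.17 and -0.44.

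Other genes of the matrix were examined for comparison. Of 66 genes of basement membrane linkers, adhesive glycoproteins, proteoglycans, collagen processing, receptors and protease regulators, 53 had ACS. Of their 365 ACS, 38 (10.4%) were higher and 31 (8.49%) lower, against 12.3% and 6.63% of all ACS, with a median of -0.040. By summed integrations 3 of these genes (5.66%) were higher and 5 (9.43%) lower, against 10.5% and 7.63% of all genes. The list as a whole was therefore near the background. The higher genes were *Tnc* (0.32 ± 0.14), *Plod3* (0.72 ± 0.31), a lysyl hydroxylase, and *Itgb1* (0.30 ± 0.11), the beta 1 integrin subunit through which cells bind collagens and laminins. Lower were *Serpinh1* (-0.37 ± 0.13), the collagen chaperone, *Tll2* (-0.35 ± 0.11), a procollagen C-proteinase, *Postn* (-0.78 ± 0.27), *Fbln1* (-0.71 ± 0.30) and *Itgb4* (-0.96 ± 0.24), the subunit that binds laminin-332. The edgeR FDR values of these 8 genes ran from 0.027 to 0.181.

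Accessibility near markers of the cell types in islets was measured beside these results, as summed CPM over the ACS of each marker list. All 8 endothelial markers had ACS. Of their 65 ACS, 9 (13.8%) were higher and 3 (4.62%) lower, against 12.3% and 6.63% of all ACS. The sum was 513 to 600 CPM in adults and 478 to 505 CPM at P10 without overlap, with *Cdh5* (0.52 ± 0.12) and *Kdr* (0.33 ± 0.13) higher as genes and *Plvap* (-0.50 ± 0.21) lower. *Cdh5* alone held 28 of the 65 ACS. Of the endothelial markers not called, *Tie1* (-0.37 ± 0.20), *Pecam1* (-0.13 ± 0.12), *Emcn* (-0.12 ± 0.15) and *Tek* (-0.035 ± 0.14) were below 0. *Esam* (0.10 ± 0.11) was above 0, so the list did not move as a whole. Of 11 mesenchymal markers, 10 had ACS, with 7 of 58 (12.1%) higher and 3 (5.17%) lower. Their sums of 252 to 301 and 256 to 279 CPM overlapped. In that list *Rgs5* (0.86 ± 0.16), a pericyte gene, was higher and *Cspg4* (-0.69 ± 0.25) and *Tbx18* (-0.54 ± 0.17) were lower, and *Acta2* was not listed. Schwann cell markers (4 of 6 with ACS, *Sox10* not listed) summed to 337 to 374 CPM in adults and 279 to 319 CPM at P10, and alpha cell markers (4 of 4) to 582 to 685 and 487 to 574 CPM, both without overlap. As genes, *Mbp* (0.31 ± 0.12) of the Schwann cell list and *Ttr* (0.35 ± 0.12) of the alpha cell list were higher. Duct markers (4 of 6) also separated, at 229 to 259 and 202 to 217 CPM, with *Cftr* (0.61 ± 0.16) higher and *Muc1* (-0.63 ± 0.18) lower as genes. Of the 4 TSS-class ACS of duct markers, 3 were lower, and of the 7 of beta cell markers, 2 were lower and 1 higher. The only 1 of the Schwann cell list was higher. None was called among 2 endothelial, 5 mesenchymal, 3 alpha cell and 3 acinar ones, and leukocyte markers had none. Over all TSS-class ACS, 7.87% were lower and 2.73% higher. Beta cell markers (8 of 9, 1065 to 1256 and 1008 to 1323 CPM), acinar markers (8 of 9, 411 to 468 and 389 to 419 CPM) and leukocyte markers (5 of 6, 41.7 to 50.7 and 47.5 to 50.4 CPM) overlapped. As genes, the beta cell markers *Ins1* (-0.59 ± 0.13) and *Ins2* (-0.38 ± 0.15) and the acinar marker *Prss1* (-0.85 ± 0.28) were lower, and the beta cell marker *Nkx6-1* (0.35 ± 0.12) was higher. No marker with ACS was at 0. The part of these shifts in the results for matrix genes was not tested.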

How the data were processed

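ATAC-seq libraries of dissociated islet cells (3 adult rats, 3 litters of P10 pups) were analysed from the deposited table. The authors had aligned reads to Rn5 with BWA (version 0.7.13), discarded mitochondrial reads and reads with a mapping quality under 30, called peaks with MACS2 (version 2.1.1) on the concatenated libraries of each age, merged both peak sets, and deposited raw counts of integrations, 1 column for each library. Versions are from the submitters' processing notes. Removal of PCR duplicates is not given in the sources used here, and standard errors cover the counts as they stand. Columns with the authors' own fold changes and p-values were not used. The nearest gene, its position and the class of each ACS are those of the table, and exons and introns were not distinguished because no Rn5 annotation was used here.

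Of 101941 listings, 338 were repeats of an ACS with another gene, and 101603 distinct ACS were tested once each. TMM scaling, glmQLFit and glmQLFTest of edgeR 4.0.16 (R 4.3.3) were applied with age as the only term and no filter on low counts, and a call needed p under 0.05 and FDR under 0.2. The common biological coefficient of variation was 0.21. Standard errors were derived as the log2 fold change over the root of the F statistic. Sums per gene used all listings, so an ACS listed with 2 genes counted for both, and no member ACS was listed with 2 genes. The share of all genes with calls in both directions used the first listing of each ACS. Shares of integrations were compared by exact permutation tests. Alternatives were column sums or total sequenced reads as library sizes, DESeq2 1.42.0, voom and cyclic loess with limma 3.58.1, filterByExpr, an FDR under 0.05, other membership rules, and leaving out each library. In simulated counts with 200 of 101603 ACS changed by 1 on the log2 scale, 40% were called and 86% had the right sign at p under 0.05. With 200 of 14776 gene sums changed, 94.5% were called. In the data 18.9% of all ACS were called, so the FDR limit was stricter in the simulation. Its shares of called features therefore do not give the share of real changes that could be called here.

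The members, lists and named ACS were chosen with earlier results of these data known. Named were, per family, the 4 called ACS with the smallest p-values in each direction (2 for TIMPs), all called TSS-class ACS, start sites of a set of main matrix genes, genes called by sums, the 5 genes with the most ACS and genes with calls in both directions. Further called ACS of those genes are given where calls were kept in all fits. P-values reflect the spread between 3 animals at the Adult age and between 3 pools at P10. In edgeR this spread was moderated toward that of all ACS, or of all genes for sums. One further gene of the ADAMTS family, and the values of some genes that are included in the counts, are not reported here.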

Additional observations from a re-analysis of the deposited data

How the results depend on the processing

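No paired analysis was possible because the replicate numbers of the 2 ages (4 to 6 and 1 to 3) do not coincide. Calls of ACS moved most with the library sizes: total sequenced reads gave 3 higher and 216 lower members with a median log2 fold change of -0.84, and column sums gave a median of -0.10. With an FDR under 0.05 there were 31 higher and 8 lower members, against 7.06% and 1.91% of all ACS. Leaving out 1 library gave 37 to 55 higher calls, 14 to 32 lower calls and medians of -0.025 to 0.0048. By summed integrations, an FDR under 0.05 gave 4 higher and 0 lower genes (at the main limits edgeR called 8 and 3), column sums gave 5 lower genes, and leaving out 1 library gave 4 to 10 higher and 0 to 6 lower genes. For ACS, the counts stayed within 1.5 times with column sums, DESeq2, voom, cyclic loess, filterByExpr and the membership rules. For gene sums they did so with distal sums (7 higher, 2 lower) and, for higher genes, with column sums (6), and the other tests were not run. The difference in the share of integrations was 0.0062 to 0.016 percentage points when 1 library was left out.

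Signs turned with total sequenced reads at *Lama4* (-0.076), *Timp4* (-0.20), *Col27a1* (-0.38), *Mmp2* (-0.77) and *Mmp9* (-0.78), all above the median of all ACS there, and with column sums at *Mmp2* (-0.033) and *Mmp9* (-0.043) and for the sums of *Adamts3* (-0.078), *Adamts5* (-0.058), *Col11a1* (-0.032) and *Lama1* (-0.074). Distal sums turned *Col3a1* (0.050), *Lamc1* (0.20) and *Mmp13* (-0.056). Among ACS and genes that were not called, leaving out 1 library turned signs, with ranges over the 6 fits of -0.24 to 0.33 for the ACS of *Mmp2*, -0.046 to 0.12 for the ACS of *Mmp9*, -0.22 to 0.053 for the ACS of *Timp1*, -0.29 to 0.021 for the ACS of *Timp3*, -0.11 to 0.11 for the sum of *Adamts3*, -0.082 to 0.12 for the sum of *Adamts5*, -0.13 to 0.15 for the sum of *Col11a1*, -0.23 to 0.11 for the sum of *Col3a1*, -0.15 to 0.12 for the sum of *Lama1* and -0.077 to 0.0067 for the sum of *Lamc1*. The P10 libraries were deeper, so low counts in adults limit the precision of the weakest ACS.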
